A study of Mus musculus with 8 samples.

Results

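The Krüppel-like factors (KLFs) are the genes described here, 10 family members of the mouse: Klf1, Klf2, Klf3, Klf6, Klf8, Klf9, Klf10, Klf11, Klf13 and Klf16. They were taken by symbol from the deposited tables of nascent RNA and of KLF1 binding sites. A member's site was any site whose closest transcription start site (TSS), as the site table names it, belonged to that gene. Of the 5551 sites, 23 belonged to a KLF gene, and 7 of the 10 genes had at least 1 site. Klf13 had 6 sites, Klf9 and Klf10 had 5 each, Klf11 had 3, Klf16 had 2, and Klf1 and Klf6 had 1 each. In the gene tables, which hold the same 11364 genes, 8 of the 10 were listed. Klf2 was listed but was the closest TSS of no site, and Klf3 and Klf8 had neither a row nor a site.

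The study asked how a mutation in the DNA-binding domain of KLF1 alters the sites it occupies in erythroid cells. K1 cells are a line from Klf1-null mouse fetal liver. K1-ER and K1-E339K-ER cells are the same line with a retroviral transgene that fuses wild type KLF1, or KLF1 carrying E339K, to the tamoxifen-responsive domain of the estrogen receptor (ER). The ligand 4-hydroxytamoxifen (4-OHT) moves the fusion protein into the nucleus. All cells compared are therefore null for endogenous Klf1, and the fusion protein is made from a viral promoter. For chromatin immunoprecipitation with sequencing (ChIP-seq), K1-E339K-ER cells of 1 clone received 200 nM 4-OHT for 3 h, an antibody to ER was used, 3 replicates were pooled into 1 library, and 1 input library was made. The K1-ER ChIP libraries came from earlier work of the same group and are no samples of this series. RNA labelled with 4-thiouridine (4sU, 500 µM for 30 min per the labels) marks transcripts made in that interval, and was sequenced from 3 K1 samples and from 3 K1-E339K-ER clones. All RNA samples received 200 nM 4-OHT except 1 K1 sample that received ethanol.

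KLF proteins share a carboxy-terminal zinc finger domain that reads GC boxes and CACCC boxes, so family members can compete for the same elements. KLF1 is the erythroid activator of the adult beta-globin gene. Klf3 and Klf8 encode repressors that recruit CtBP, and KLF9, KLF10, KLF11, KLF13 and KLF16 are known to recruit the SIN3A corepressor. KLF factors also regulate each other's genes.

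Each site carried 1 concentration per protein, which is the mean read count after normalization on a log2 scale, already averaged by the authors. Depth was unknown, no error between replicates could be given, and no difference below was tested. A site was called higher with one protein when the concentrations differed by at least 1 on the log2 scale, which is 2-fold. The lowest concentration in the table was -0.09 for KLF1-ER, shared by 1424 sites, and -0.38 for KLF1-E339K-ER, shared by 147 sites. At such a site the difference was taken from that lowest listed value, and it is given as values and not as a fold. Concentrations were not divided by the width of the site, so the proteins were compared at 1 site and not different sites with each other. The erythroid label of the line was checked against markers: 14 of 15 erythroid genes were listed in the RNA tables, and 13 of them lay above the median of all genes per kb. None of 4 lymphoid and none of 4 hepatocyte markers was listed, against 2 of 5 megakaryocyte, 2 of 5 myeloid and 2 of 4 fibroblast and endothelial markers. Both listed megakaryocyte markers also lay above that median, and none of the listed myeloid, fibroblast and endothelial markers did.

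The 23 KLF sites divided between the proteins. Concentrations were higher with KLF1-ER at 12 sites (52.2%) and higher with KLF1-E339K-ER at 9 (39.1%), and 2 sites were within 2-fold. Over all 5551 sites the corresponding shares were 28.7% and 61.5%. The median difference, mutant minus wild type, was -1.09 for the KLF sites and 2.60 for all sites. When every difference was first centred on that median of 2.60, 16 KLF sites were higher with KLF1-ER and 3 with KLF1-E339K-ER, against 42.3% and 41.5% of all sites. By position, within 10 kb of the TSS, 5 of 14 KLF sites (35.7%) were higher with KLF1-ER, against 28.8% of all sites at that distance. Beyond 10 kb, 7 of 9 (77.8%) were, against 28.4%, and 4 of these 7 lay in sequence that recurs in the table. Without those 4, 3 of 5 distal sites were higher with KLF1-ER. The list was put together with earlier results of these data known, and the shares are descriptions of 23 sites.

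**Figure D1:**
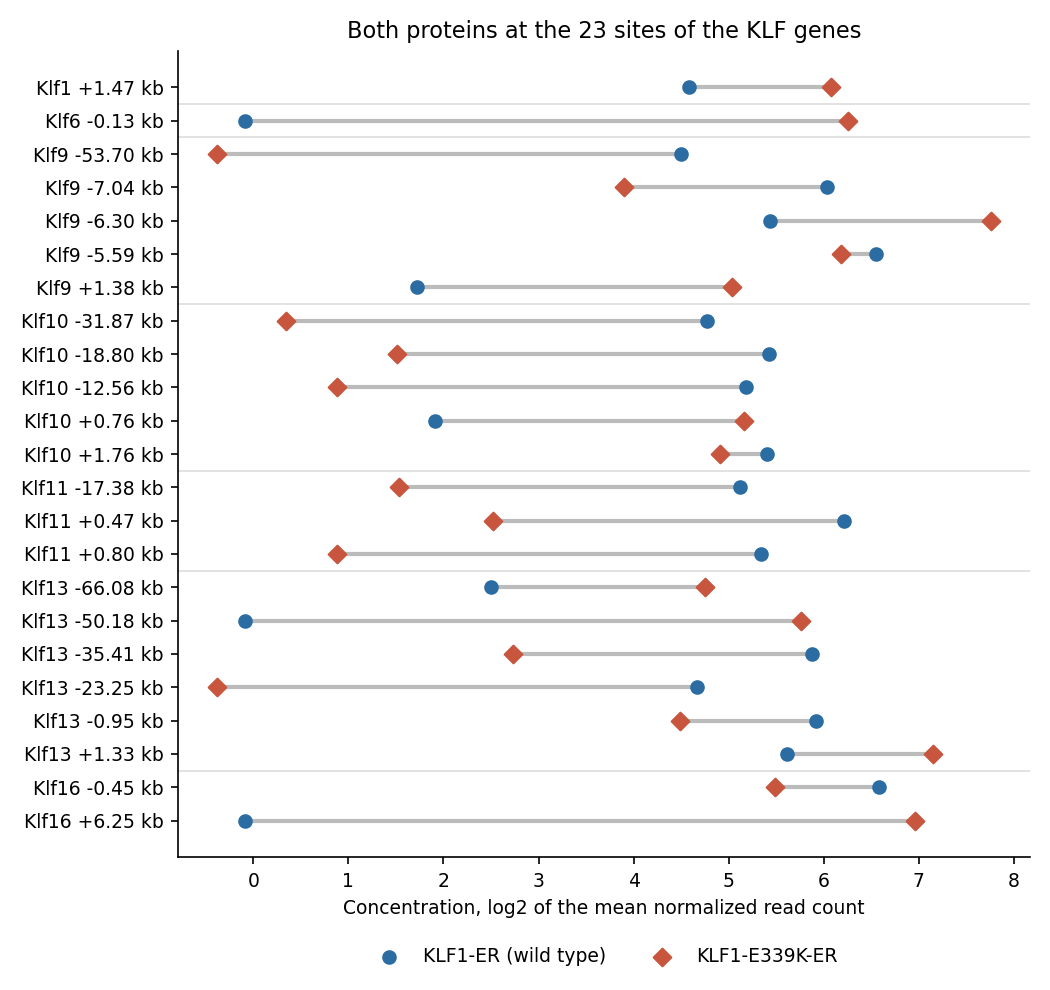
Concentration (mean read count after normalization, log2 scale) of KLF1-ER (blue circles) and KLF1-E339K-ER (red diamonds) at each of the 23 sites, named by gene and by distance of the midpoint from the TSS in kb, negative upstream. Each point is 1 pooled value with no error; at Klf6, at the intronic site of Klf16 and at the Klf13 site 50.2 kb upstream the wild type value was the lowest in the table.

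Sequences are shown first for sites that held a motif form or recurred in the table, with 1 that held neither form, so that the letters can be read beside the values. The study described a motif with a pyrimidine at position 5 for wild type KLF1 and with a purine at position 5 for the mutant. The words searched, on both strands, were GGGCGTGG, GGGCGGGG, GGGTGTGG and GGGTGGGG for the pyrimidine form and GGGAGTGG, GGGAGGGG, GGGGGTGG and GGGGGGGG for the purine form, each preceded by 1 base of any kind. Runs of G can hold overlapping words and a run counts once per site. All sequences are from the NCBIM37 (mm9) genome, printed 5′ to 3′ on the strand named, and capitals mark an exact match to either form with its preceding base. A match is a description of the letters and does not show that a protein sat there.

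Among the sites higher with KLF1-ER, the following come from 3 sites whose sequences were copies of one another, from 1 that lay in a B1 element, and from 3 that were unlike any other site. The first 2 lie upstream of Klf10 at chr15:38242996-38243086 and chr15:38249204-38249314, and the other upstream of Klf13 at chr7:71106985-71107072, all on the plus strand. The remaining windows are chr19:23161977-23162015 (minus strand) for Klf9, chr7:71119190-71119228 (plus) and chr7:71084732-71084784 (minus) for Klf13, and chr12:25336738-25336765 (plus) for Klf11.
Klf10, 12.6 kb upstream: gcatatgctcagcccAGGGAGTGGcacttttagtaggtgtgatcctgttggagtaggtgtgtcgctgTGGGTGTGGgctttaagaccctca
Klf10, 18.8 kb upstream: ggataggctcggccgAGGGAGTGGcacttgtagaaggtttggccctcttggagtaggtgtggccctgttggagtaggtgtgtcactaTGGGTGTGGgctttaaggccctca
Klf13, 23.2 kb upstream: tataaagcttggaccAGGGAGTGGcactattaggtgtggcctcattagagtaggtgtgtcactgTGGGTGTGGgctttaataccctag
Klf9, 53.7 kb upstream: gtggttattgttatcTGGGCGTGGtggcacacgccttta
Klf13, 35.4 kb upstream: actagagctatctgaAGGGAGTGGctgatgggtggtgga
Klf13, 952 bp upstream: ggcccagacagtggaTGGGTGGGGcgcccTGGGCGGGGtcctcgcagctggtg
Klf11, 469.5 bp downstream: gGGGGCGTGGccaaagctAGGGCGTGGg

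Among the sites higher with KLF1-E339K-ER, 3 held the purine form within 50 bp of the midpoint and are shown with a Klf6 window that held neither form. The Klf13 site at 66.1 kb, which held the pyrimidine form, is not shown. They lie at chr10:80033800-80033840 (minus strand) for Klf16, chr15:38229693-38229731 (minus) for Klf10, chr7:71082410-71082448 (minus) for Klf13 and chr13:5860551-5860651 (plus) for Klf6. The last line, from chr15:38228642-38228767 (plus), is the Klf10 site at which the proteins were within 2-fold, and it holds both forms.
Klf16, 6248 bp downstream: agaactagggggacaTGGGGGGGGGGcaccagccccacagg
Klf10, 757.5 bp downstream: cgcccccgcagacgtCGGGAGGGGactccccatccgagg
Klf13, 1332 bp downstream: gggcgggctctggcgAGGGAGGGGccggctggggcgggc
Klf6, 134 bp upstream: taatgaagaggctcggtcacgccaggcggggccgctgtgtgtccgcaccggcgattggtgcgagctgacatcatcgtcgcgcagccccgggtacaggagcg
Klf10, 1761.5 bp downstream: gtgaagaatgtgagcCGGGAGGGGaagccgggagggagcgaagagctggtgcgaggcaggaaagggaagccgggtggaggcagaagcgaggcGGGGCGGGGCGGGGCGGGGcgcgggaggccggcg

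Klf10 encodes a factor induced early by transforming growth factor beta, and its 5 sites lay in a distal group and a proximal group. The distal group had 3 sites, all intergenic and all higher with KLF1-ER. At the site 12.6 kb upstream (chr15:38242865-38243189) the concentration was 5.18 with KLF1-ER and 0.88 with KLF1-E339K-ER. At the site 18.8 kb upstream (chr15:38249073-38249445) it was 5.42 and 1.51, and at the site 31.9 kb upstream (chr15:38262170-38262491) it was 4.77 and 0.34. The wild type values were alike at the 3 sites and the mutant values were all low. The proximal group lay inside the gene, and further annotated starts of Klf10 lay 238.5 and 765.5 bp from their midpoints. In the intronic site 757.5 bp downstream of the TSS (chr15:38229548-38229861) the order turned, with 1.91 for KLF1-ER and 5.16 for KLF1-E339K-ER. In the intronic site 1761.5 bp downstream (chr15:38228496-38228905) the proteins differed by -0.49, at 5.40 and 4.91.

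Klf11, a close relative of Klf10, was the gene at which every site was higher with KLF1-ER. The pair of sites downstream of its TSS shared 1 base and can be regarded as 1 region. Further annotated starts of Klf11 lay 55.5 and 13.5 bp from their midpoints. At 469.5 bp (chr12:25336546-25336865) the concentration was 6.21 with KLF1-ER and 2.52 with KLF1-E339K-ER. At 796.5 bp (chr12:25336865-25337200), where the midpoint lay in an annotated untranslated exon, it was 5.34 and 0.88. The remaining site, 17.4 kb upstream (chr12:25318647-25319067), had 5.12 and 1.53. An annotated pseudogene start lay nearer to this site than Klf11 did. The windows of both proximal sites held the pyrimidine form, and the distal one held neither form within 50 bp.

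Klf13, which encodes a GC-box factor of erythroid and lymphoid cells, had the most sites, 3 in each direction. In an intron, 1332 bp downstream of the TSS (chr7:71082262-71082676), the concentration was 5.61 with KLF1-ER and 7.15 with KLF1-E339K-ER. At 952 bp upstream (chr7:71084599-71084907) it was 5.92 and 4.49. These promoter-flanking sites thus differed in opposite directions, and both proteins were above 4 at each. Both differences, 1.54 and -1.43, lay below the median of 2.60 over all sites. Farther out, 1 of the proteins was below 3 at every site. At 23.2 kb upstream (chr7:71106892-71107203) the values were 4.67 and -0.38, the lowest listed for the mutant, and at 35.4 kb (chr7:71119053-71119359) they were 5.88 and 2.73. At 50.2 kb (chr7:71133830-71134135) they were -0.09, the lowest listed for wild type, and 5.76. At 66.1 kb (chr7:71149707-71150053) they were 2.50 and 4.75. The 2 nearer distal sites were higher with KLF1-ER and the 2 farther ones with KLF1-E339K-ER. The start of an annotated U3 small nucleolar RNA lay 63.5 bp from the midpoint of the site at 23.2 kb and was the nearest annotated start to all 4 distal sites.

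Klf9, a factor induced by thyroid hormone and glucocorticoid, had 3 sites side by side, with gaps of 218 and 11 bp. At 7040.5 bp upstream (chr19:23208521-23208830) the concentration was 6.03 with KLF1-ER and 3.90 with KLF1-E339K-ER. At 6299 bp upstream (chr19:23209049-23209785) it was 5.43 and 7.76. At 5594 bp upstream (chr19:23209797-23210447) it was 6.55 and 6.18. Within this cluster the direction passed from wild type to mutant to within 2-fold. The sites at 6299 and 5594 bp overlapped exons of the long noncoding RNA 2410080I02Rik, whose start lay 27 bp from the midpoint of the former. The same start was the nearest annotated one to the site at 7040.5 bp, at 714.5 bp. The closest TSS does not say on which gene the sites of this cluster act. The intronic site 1377 bp downstream (chr19:23216937-23217249) had 1.72 and 5.03, and the site 53.7 kb upstream (chr19:23161844-23162189) had 4.50 and -0.38, the lowest listed for the mutant. The start of another noncoding RNA, C330002G04Rik, lay nearer to the site at 53.7 kb than Klf9 did, at 11673.5 bp.

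Klf16, a GC-box repressor first described at the dopamine receptor gene, had a site at its TSS and a site in an intron. The promoter site, 448.5 bp upstream (chr10:80040041-80040938), was occupied by both proteins, at 6.58 for KLF1-ER and 5.49 for KLF1-E339K-ER. The intronic site, 6248 bp downstream (chr10:80033640-80033946), had -0.09, the lowest listed, for KLF1-ER and 6.96 for KLF1-E339K-ER. The Klf16 promoter thus had both proteins, and its intron had a wild type value at the floor of the table. The run of G printed above, which holds the purine form in overlapping frames, lay 26 to 28 bp from the midpoint of the intronic site.

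Klf6 encodes an activator of the injury response, and its single site lay at the promoter, 134 bp upstream (chr13:5860251-5860951). The concentration was -0.09, the lowest listed, with KLF1-ER and 6.26 with KLF1-E339K-ER. It was the only one of the 6 KLF sites within 1 kb of a TSS at which the wild type value was the lowest listed. Its central window held neither form: the closest stretch differed from the pyrimidine form by 1 base and from the purine form by 2. A CCAAT word lay 5 bp from the midpoint on the minus strand.

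Klf1 itself had 1 site, in its coding exon 1471.5 bp downstream of the TSS (chr8:87427107-87427490), with 4.58 for KLF1-ER and 6.08 for KLF1-E339K-ER. Of its 384 bases, 295 were coding. The transgene carries the same coding sequence, so reads from the transgene and from the chromosome cannot be told apart there, and the transgene was not the same in both lines. Without this site, 8 of 22 KLF sites were higher with KLF1-E339K-ER and 12 with KLF1-ER.

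**Figure D2:**
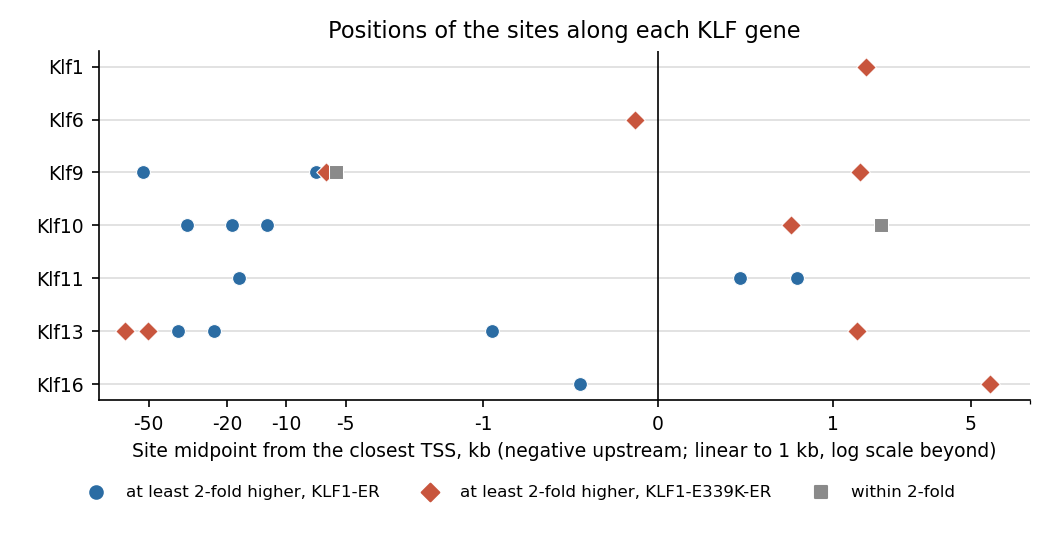
Midpoint of each KLF site from its TSS in kb (linear to 1 kb and on a log scale beyond; negative is upstream), 1 row per gene, coloured by the protein with the higher concentration. Blue circles (KLF1-ER) hold 7 of the 9 positions beyond 10 kb, and Klf9, Klf10, Klf13 and Klf16 carry both colours. Differences were not centred on the median of all sites.

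Sites of 1 gene were in several cases higher with different proteins, and of 16 pairs of successive sites along a gene 5 had opposite calls. Such pairs were not counted over all genes, so the 5 is a description with no background beside it. Of the 5 KLF genes with 2 or more sites, 4 (Klf9, Klf10, Klf13 and Klf16) had sites of both directions, against 35.3% of the 1103 such genes in the table. These calls were made without centring on the median difference of 2.60. The sites higher with KLF1-E339K-ER at Klf9 (2.33 and 3.31) and Klf10 (3.25) differed from that median by less than 1. With centring, Klf9 and Klf10 would therefore not hold both directions. Genes with more sites have more chances to hold both, and 3 of the 7 KLF genes had at least 5 sites, against 2.32% of all genes with a site. The 3 sites of Klf11 were all higher with KLF1-ER.

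A sequence was shared by 3 of the 23 KLF sites. The sites of Klf10 at 12.6 and 18.8 kb and of Klf13 at 23.2 kb aligned with each other at 80% identity over 205 bases, 83.5% over 212 and 82.4% over 187. Each held AGGGAGTGG, the purine form, and TGGGTGTGG, the pyrimidine form, within 50 bp of its midpoint. These sites were noticed after the values had been seen, and the comparison that follows was added then. A further 43 sites of the table aligned with 1 of the 3 over at least 100 bases, each next to a different gene. All 43 were higher with KLF1-ER, against 28.7% of all sites. Their concentrations had a median of 5.12 (4.30 to 7.02) with KLF1-ER and of 0.05 (-0.38 to 4.62) with KLF1-E339K-ER. Searched over the whole site rather than its centre, the purine form was present in 40 of all 46 sites and the pyrimidine form in 39, against 58.4% and 58.6% of all 5551 sites. The 46 include the 3 KLF sites and were chosen by likeness to them. Since those 3 hold both forms, the shares follow in part from that choice and are no measure of enrichment. The genome held 27526 stretches that aligned with these sequences, of which 47 overlapped a site. The pyrimidine form was found in 76.6% of those and in 32.9% of the others, and the purine form in 78.7% and 44.5%. The 47 include the 3 KLF sites, and stretches of any length from 100 bases were taken without matching lengths. The part of length and of this choice in the contrast was not tested.

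The Klf9 site 53.7 kb upstream lay in a B1 element, a short interspersed repeat of the mouse, recognised from its sequence. Its TGGGCGTGG is part of the element. Elsewhere among the sites, 118 aligned with it over at least 100 bases, and 106 of them (89.8%) were higher with KLF1-ER, 11 with KLF1-E339K-ER and 1 was within 2-fold. Their median concentration was 4.84 with KLF1-ER and 0.05 with KLF1-E339K-ER. Together, 4 of the 12 KLF sites higher with KLF1-ER lay in sequence that recurs in the table, and none of the 9 higher with KLF1-E339K-ER did. Without these 4 sites, 8 of 19 were higher with KLF1-ER and 9 with KLF1-E339K-ER. The authors excluded multi-mapped reads; how the wild type libraries of the earlier work were mapped is not given in the sources used here, and the part of mapping in these values was not tested.

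**Figure D3:**
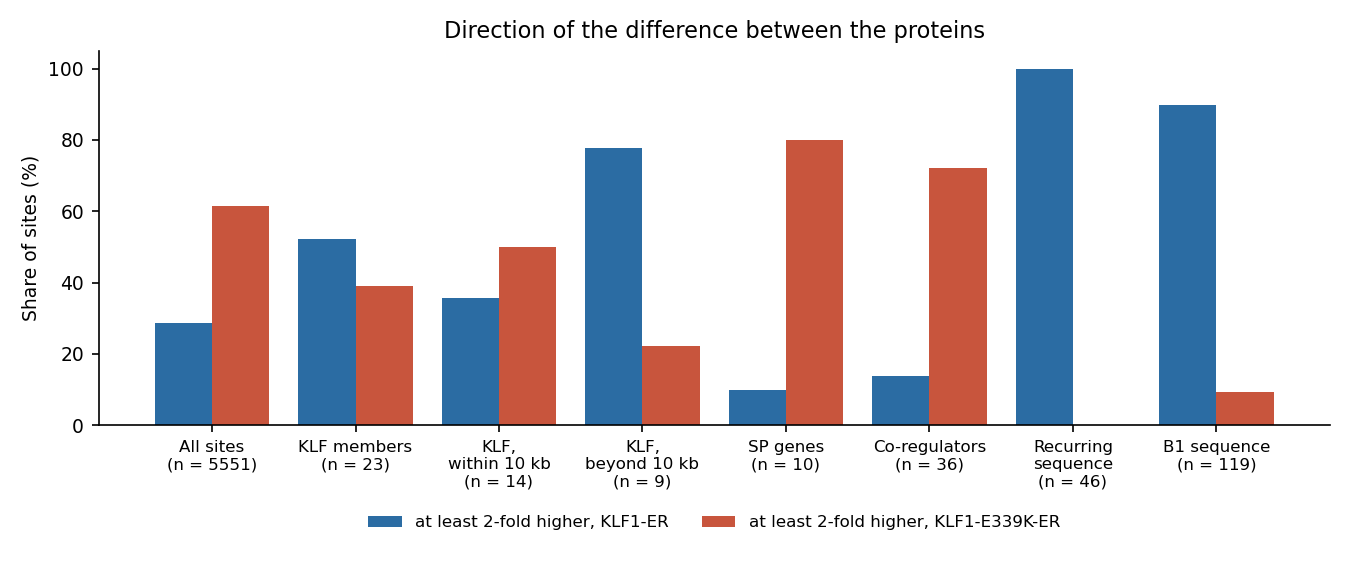
Share of sites (%) at least 2-fold higher with KLF1-ER (blue) or with KLF1-E339K-ER (red) for all sites, the KLF genes, the KLF genes by distance from the TSS, SP genes, co-regulators of KLF factors, and the sites that aligned with the recurring sequence or with the B1 element. All 46 sites of the recurring sequence were higher with KLF1-ER, whereas 61.5% of all sites were higher with KLF1-E339K-ER.

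Exact matches to both motif forms were counted in the KLF sites, the 3 copies of the recurring sequence included. Each copy adds a match to both forms, and the counts were not repeated without them. Within 50 bp of the midpoint 11 of 23 held the purine form (47.8%, against 35.5% of all sites) and 10 held the pyrimidine form (43.5%, against 35.3%). Of the 12 sites higher with KLF1-ER, 8 held the pyrimidine form (66.7%), against 60.7% of all sites in that direction. The purine form was in 6 of these 12, against 16.0% of all sites in that direction. In 5 of the 6 it stood beside the pyrimidine form, namely in the 3 copies, in the Klf16 promoter and in the Klf11 site at 796.5 bp. The exception was the Klf13 site at 35.4 kb, which held AGGGAGTGG 3 bp from its midpoint and the pyrimidine form only between 50 and 100 bp from it. Its concentration was 5.88 with KLF1-ER and 2.73 with KLF1-E339K-ER.

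The 9 sites higher with KLF1-E339K-ER were counted in the same way. The purine form was in 3 of them (33.3%, against 45.8% of all sites in that direction), in Klf16, Klf10 and Klf13. The pyrimidine form was in 1 (11.1%, against 22.8%), the Klf13 site at 66.1 kb. Neither form was in the other 5 (55.6%, against 45.3% of all sites in that direction). These were the sites of Klf1 and Klf6, the Klf9 sites at 6299 bp upstream and 1377 bp downstream, and the Klf13 site at 50.2 kb. When whole sites were searched, 2 of the 5, Klf6 and the Klf13 site, still held neither form. At the Klf13 site a GATA word, TGATAG, lay 7 bp from the midpoint. GATA words were found in 3 of 23 KLF sites, against 20.6% of all sites, and CCAAT in 1, against 8.02%. The search took GATA with A or T before it and A or G after it. The median GC content of the KLF sites was 54.6% in those higher with KLF1-ER and 63.5% in those higher with KLF1-E339K-ER, against 58.4% and 59.1% of all sites in those directions. Without the 4 sites in recurring sequence, the 8 remaining KLF sites higher with KLF1-ER had a median of 58.6%.

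**Figure D4:**
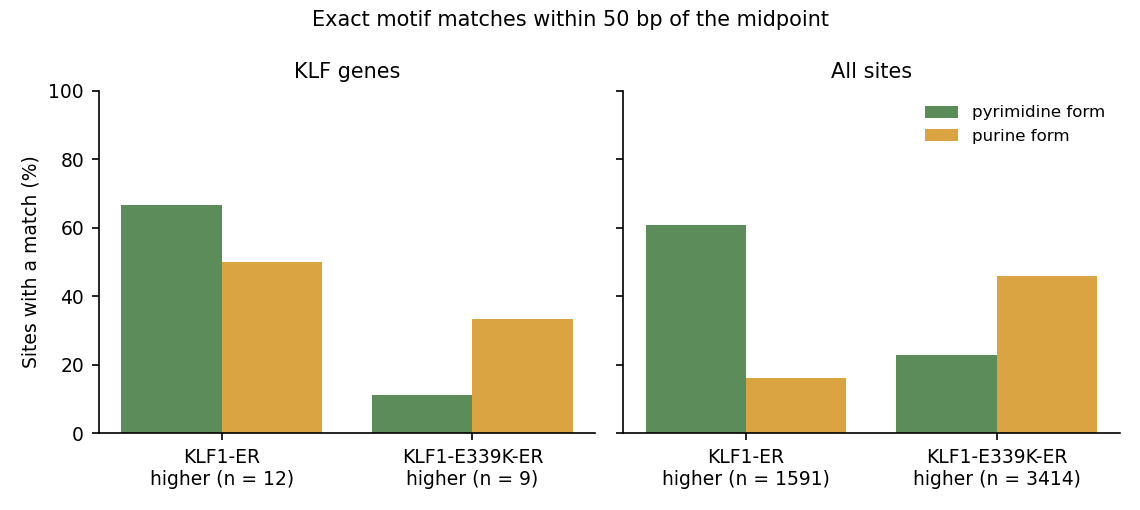
Share of sites (%) with an exact match to the pyrimidine form (green) or the purine form (yellow) within 50 bp of the midpoint, by the protein with the higher concentration, for the KLF genes (left, 12 and 9 sites) and all sites (right). The purine form was present in 6 of the 12 KLF sites higher with KLF1-ER and in 16.0% of all sites in that direction.

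The level of each KLF transcript was known only as a mean over all libraries of the authors' fit, in log2 CPM (counts scaled to library size), and was divided here by the deposited gene length, introns included, to compare genes. On this log2 CPM per kb scale 7 of the 8 listed KLF genes lay above the median of all 11364 genes, which was 0.82. Klf1 was highest at 5.09 (percentile 97.1), followed by Klf10 at 4.24 (93.9), Klf16 at 3.97 (92.4) and Klf13 at 3.58 (89.7). Klf9 had 2.49 (78.0), Klf11 had 1.77 (66.6) and Klf6 had 1.69 (65.4). Klf2, known for its role in endothelium and resting T cells, was the exception at -3.04 (9.7), and it was also the single listed member with no site. Outside the list, 2 more KLF genes had a row, and both lay below the median: Klf7 at -0.24 (32.9) and Klf12 at -1.99 (15.3). The spread between samples is unknown, so whether neighbours in this order differ could not be asked.

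The Klf1 level cannot be read as that of the endogenous gene, since all the lines are Klf1-null and only the ER lines carry the transgene. Whether the null locus still gives reads was not tested. Which libraries entered the mean, and whether K1-ER libraries were among them, is not given in the sources used here. Without division by length the order changed: Klf13, whose deposited length is 52565 bp, had the highest mean log2 CPM at 9.30 (percentile 99.4), while Klf6, at 4.85 (42.9), fell below the median of 5.27. Klf11 lay at 5.28, next to that median. Divided by the length of annotated exons, 5 of the 8 were above the median. Of the 7 genes with a site, those with 5 or 6 sites (Klf9, Klf10 and Klf13) had levels of 2.49 to 4.24 per kb. The genes with 1 to 3 sites had 1.69 to 5.09, or 1.69 to 3.97 with Klf1 left out. Being the closest TSS of a site was common among the 11364 genes (26.6%), and the KLF list was drawn up with these sites known.

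**Figure D5:**
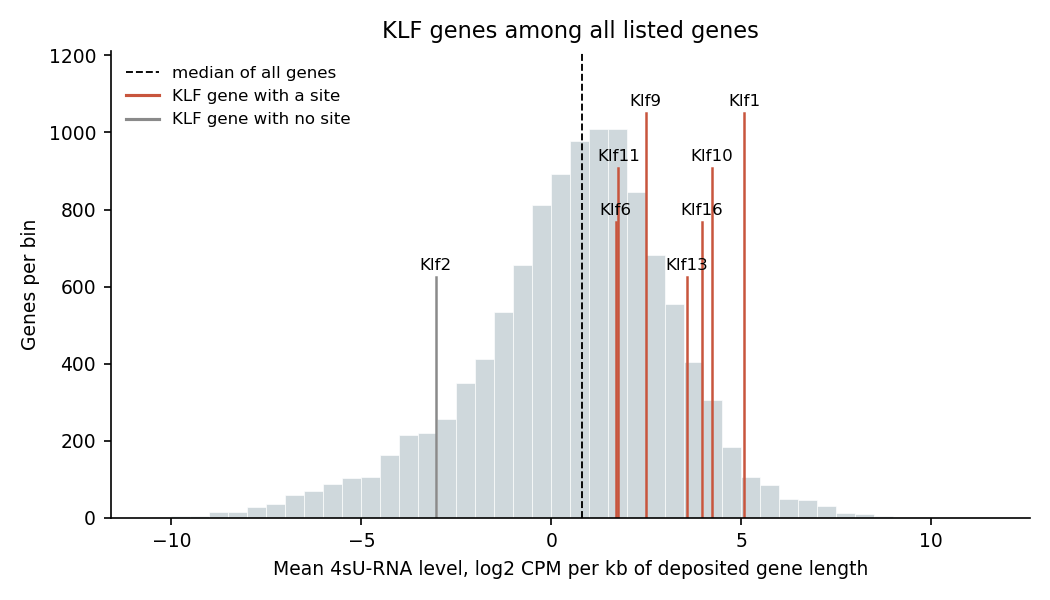
Histogram of the mean 4sU-RNA level of all 11364 genes in log2 CPM per kb of deposited gene length, with the 8 listed KLF genes marked (line heights carry no value) and the median of all genes dashed. Klf2 at -3.04 stands below the median of 0.82, and the other 7, from 1.69 to 5.09, above it.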

How the data were processed

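ChIP and 4sU-RNA reads (Ion Proton) were mapped by the authors to mm9, ChIP reads with TMAP and RNA reads with TopHat2 (2.0.10 in the submitters' processing notes) and TMAP, and duplicate and multi-mapped ChIP reads were excluded. The authors called peaks with MACS2 and GEM and compared proteins with DiffBind, and the deposited concentrations are log2 values, 1 per protein. The deposited gene tables hold limma-voom mean expression as log2 CPM, 1 per gene. Counting tool, annotation and the versions of limma and DiffBind are not given in the sources used here. The tables also hold the authors' fold changes, test statistics and p-values per gene and site, which were not used, so no RNA response is described.

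Members, lists and rules were chosen with earlier results of these data known. Every member gene and every member site is named. Both gene tables were joined on Entrez identifier, length and mean expression. Site sequences were read from NCBIM37 and positions from GENCODE M1. A difference of 1 on the log2 scale counted as a call. Motifs were searched within 50 bp of midpoints, and like sequences with blastn 2.17.0 (at least 100 bases, E value at most 1e-10). No value per library was in the tables, so no test was run and depth is unknown. The motif search and the calls were run on simulated sites with planted words and differences, as a check of the code only. Tables were handled with Python 3.11.15 and pandas 2.3.3.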

Additional observations from a re-analysis of the deposited data

How the results depend on the processing

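Of 25 alternative settings over all results, 21 gave counts within 1.5 times those reported. Counts and not shares were compared. The setting without the recurring sequence is among the 21, though 8 of 19 sites were then higher with KLF1-ER and 9 with KLF1-E339K-ER. The count of KLF sites higher with KLF1-ER, 12 of 23, was 5 of 14 within 10 kb of the TSS, against 28.8% of all sites there. It was 7 of 15 when a site was given to the closest annotated TSS of any type, including noncoding genes. Over all sites the share was 28.7%. With protein-coding genes alone the count was 12 of 24. The count higher with KLF1-E339K-ER, 9 of 23, was 3 after differences were centred on the median of all sites, against 41.5% of all sites. The pyrimidine form was found in 17 rather than 10 KLF sites when whole sites were searched, against 58.6% of all sites. The settings with protein-coding genes alone, without the recurring sequence, without Klf1 and with centring were chosen after seeing the data. With 4-fold as the limit, 10 of 23 sites were higher with KLF1-ER and 7 with KLF1-E339K-ER, against 23.3% and 55.3% of all sites.

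No paired analysis was possible because the tables hold 1 pooled value per protein or gene, and for the same reason no replicate was left out. The mutant concentration rests on 1 library from 1 clone and the wild type libraries were made earlier, so protein, clone and time of sequencing cannot be told apart.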

Other observations

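The related SP genes encode factors that read the same GC boxes. Of 10 sites at 6 SP genes, 8 were higher with KLF1-E339K-ER, 1 was higher with KLF1-ER and 1 was within 2-fold, against 61.5% and 28.7% of all sites, and the difference from the KLF genes was not tested. The site higher with KLF1-ER lay 4447.5 bp upstream of Sp1, with a concentration of 5.97 with KLF1-ER and 0.05 with KLF1-E339K-ER. At Sp3, the site 529.5 bp upstream had 0.50 and 5.60. Sp4 had both proteins at the site 781 bp upstream of its TSS, at 7.13 and 7.20. Klf7, the single KLF gene outside the list with a site, had 2.08 and 4.99 at 257.5 bp upstream. Of the 9 SP genes 5 were listed in the RNA tables, and 2 of them, Sp1 at 2.19 and Sp3 at 2.16 log2 CPM per kb, lay above the median of all genes.

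Co-regulators that KLF factors are known to work with had 36 sites at 10 of 14 genes, of which 26 (72.2%) were higher with KLF1-E339K-ER, 5 (13.9%) with KLF1-ER and 5 within 2-fold, against 61.5% and 28.7% of all sites. Of the 14 genes, 13 were listed in the RNA tables and 9 lay above the median, led by Gata1 at 6.68 log2 CPM per kb, the erythroid GATA factor, and Tal1 at 5.86. Sin3a, which encodes the corepressor recruited by several KLF factors, lay at 2.24, and Ctbp1 and Ctbp2, which encode the corepressors of KLF3 and KLF8, at 3.30 and 2.50.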
